A study of Homo sapiens with 6 samples.

Results

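Reads of polyadenylated RNA gather in 14686 genomic regions of the deposited table, and 4315 of those regions outside the mitochondrial chromosome carry no gene name. The members described here are the 1128 unnamed regions that have no named region on their own strand within 20 kb but have a named region on the opposite strand within 20 kb, measured between the midpoints of the regions. The strand was read from the order of a region's coordinates, with a larger first coordinate for the minus strand. Each member was set beside its nearest opposite-strand named region, called its neighbour. No measured value entered this choice. Of the other unnamed regions, 642 have a named region on the same strand within 20 kb and 2545 have none within 20 kb on either strand.

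The RNA came from H9, an established line of human embryonic stem cells (hESCs), at passage 51. The hESCs (day 0) grew on growth factor-reduced matrigel in medium conditioned on primary MEF cells. The endoderm cells (day 6) were H9 cells kept for 6 days in RPMI medium with activin A at 100 ng/ml, with 0% fetal bovine serum for day 1, 0.2% for day 2 and 2% from then on, and a medium change on day 3. Each cell type has 3 libraries, which the labels place in the G1 phase (0 h in both types), in G1/S (2 h in hESCs, 3 h in endoderm) and in S phase (3 h and 6 h). Where 3 values of a cell type are listed, they run in that order. The labels name 1 line and 1 passage and do not say whether the libraries came from separate cultures, so p-values measure the spread between these 6 libraries, which may be technical. Of 9 definitive endoderm markers listed, 8 had a region and all 8 were higher in endoderm, with sums of 442 to 533 in the hESC libraries and 8279 to 17230 in the endoderm libraries. Of 10 hESC markers, 9 had a region and 3 were lower in endoderm, and NANOG had no region in the table. Of the listed markers of other cells, 1 of 3 mesoderm, 2 of 3 neuroectoderm and 1 of 4 stromal markers with a region were higher, 2 of 4 stromal and 2 of 2 trophoblast markers were lower, and their part in the results was not tested.

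An antisense transcript is made from the DNA strand opposite to that of a gene, so the RNAs of such a pair are complementary where they overlap. Antisense and divergent noncoding RNAs are common near promoters and ends of genes that act in development, and several are known to affect the gene across from them, in cis. In 3' RNA-Seq an oligo(dT) primer pairs with a run of A at the end of an RNA, most often the poly(A) tail, and reads mark that end with its strand. A cell's poly(A) signal, most often AATAAA, lies shortly before the site where the RNA is cut and the tail is added.

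The values are the deposited signal, which is reads divided by a size factor for each library. Library depth ran from 2502792 to 6203079 reads, the value of 1 read from 0.591 to 1.71, and a region without a read in a library can have a signal of up to 1.77 to 5.13 there (3 reads, counting error only). Members held the smallest share of reads in hESC G1. It was 0.609% of the reads of hESC G1, 0.913% of hESC G1/S and 1.64% of hESC S, against 2.33%, 1.21% and 1.83% of the endoderm libraries. Unnamed regions near a named region of their own strand held 0.806%, 0.773% and 0.993% in the hESC libraries and 1.76%, 1.28% and 1.55% in the endoderm libraries, also larger in endoderm. Those far from any named region went the other way. They held 3.83%, 3.59% and 3.85% in the hESC libraries and 3.09%, 3.03% and 3.53% in the endoderm libraries. The comparisons of the cell types below are therefore given for each pair of libraries as well, and the part of the hESC G1 library in them was measured by leaving it out.

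The largest class of members shared bases with the region across from them, displaced toward its end (histogram of midpoint distances). Of the 1128 members, 485 (43.0%) shared bases with the neighbour, 395 lay apart from it beyond its end and 248 lay apart on its upstream side, the side from which the neighbour is transcribed. Along the neighbour's strand the midpoint of an overlapping member lay a median of 100 bases farther on (quartiles 78.5 and 120.5). The midpoint was displaced that way in 456 of the 485 overlapping pairs and the other way in 29, and 377 (77.7%) fell 50 to 150 bases along. Members apart from the neighbour were spread widely, with a median of 3717 bases beyond the end and of -3237 bases on the upstream side. The 1128 members had 952 neighbour names. A single member lay opposite 811 of these, so most members do not share a neighbour, while GRPR had 8, CER1 6 and FBXL10 5.

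**Figure D1:**
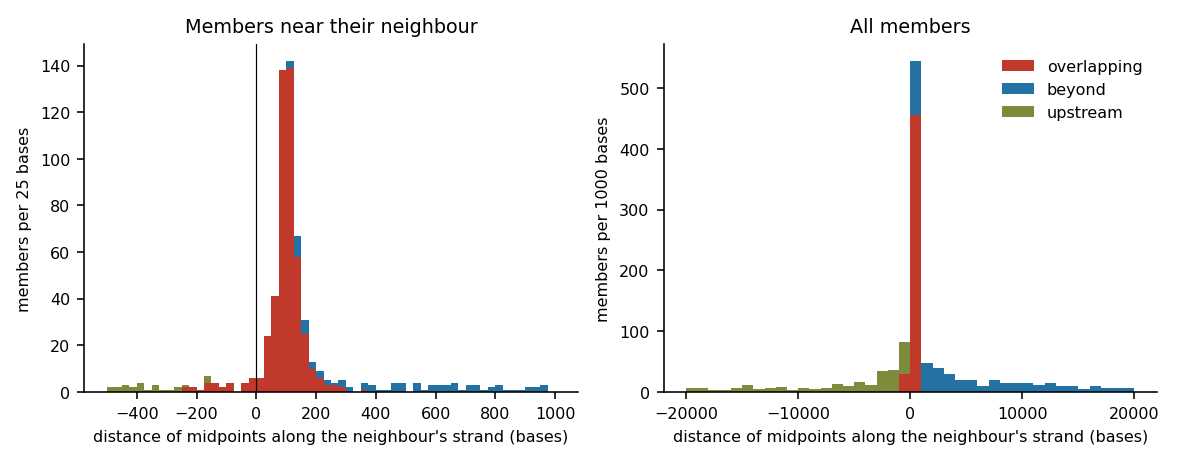
Distance from the midpoint of the neighbour to the midpoint of the member, along the neighbour's strand (bases, positive toward the neighbour's end and past it), for members within 500 bases upstream and 1000 beyond (left, members per 25 bases) and for all 1128 members (right, members per 1000 bases). Colours give overlapping, beyond and upstream members, and the overlapping ones pile up near 100 bases.

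Sequence at the ends of the genes across from the members is shown next, because overlapping members lie on the strand complementary to it. The letters below are 30-base stretches of the neighbour's own RNA strand, 5' to 3', from the last 300 bases of its longest basic protein-coding transcript in GENCODE 29. That transcript may not be the one that ends at the deposited region. Capitals mark TTTATT, which reads AATAAA on the member's strand, or a run of TTTTTTTT, which reads AAAAAAAA there.
APLP2: ctgtggtgtattTTTATTttcctgtgactg
SMS: tttttgttccttTTTATTtctctgtgggct
HES1: cctttggggaagTTTATTtgagaaaatata
PHLDA1: ggggagatgtgaTTTATTtttcatattttc
HMGA2: agtatttgtaggTTTATTggcaagatagct
RAB5B: cgattattattTTTTTTTTctacgcaaaat
KLF5: taacgacaattTTTTTTTTggaaaataaaa
VIM: taaaactgcttTTTTTTTTccagcaagtat
DNMT3B: tttcattaaaaTTTTTTTTgtaactggagc
Of 24 overlapping members described by name whose neighbour had such a transcript, 13 had a match to one or the other in those 300 bases, and these 9 stand for them.

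Both letter patterns were more frequent in the members' neighbours than in named genes with no member. TTTATT stood in the last 300 bases of 40.4% of the 455 neighbours of overlapping members with a transcript, 38.4% of those beyond and 30.5% of those upstream, against 25.4% of 8135 named genes with no member. A run of TTTTTTTT stood there in 20.9%, 19.9% and 8.45%, against 6.77%. On the neighbour's own strand AAAAAAAA stood in the last 300 bases of 9.89%, 11.8% and 13.6%, against 7.82%. This gap is smaller than that of TTTTTTTT for overlapping members and those beyond, and larger for those upstream. AATAAA, counted in the last 50 bases alone, was found in 67.3%, 64.0% and 62.9% against 63.5%. The median length of the transcripts was 3763 bases opposite overlapping members and 3111 bases in genes with no member. These shares are descriptions of letters and no test was run on them.

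Among the overlapping members with a transcript, 99 lay opposite a run of TTTTTTTT, 188 opposite TTTATT, 30 opposite both and 212 (45.2%) opposite neither. The mean signal over 6 libraries had a median of 31.1 in members whose neighbour had the run, 19.7 with TTTATT and 22.9 with neither. The member's signal as a ratio of its neighbour's had medians of 0.586, 0.531 and 0.330. Members whose neighbour had or lacked the patterns had close median log2 differences between endoderm and hESC, 1.27 with the run, 1.37 with TTTATT and 1.20 with neither.

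GENCODE 29 was used for names and for which genes neighbour each other. In it a gene on the opposite strand ended within 20 kb of the end of 47.4% of the matched neighbours of overlapping members, 59.6% of those beyond and 57.0% of those upstream, against 69.6% of named genes with no member. Such a gene ended within 500 bases of the end of 2.19% of the 456 matched neighbours of overlapping members, 3.61% of those beyond and 2.80% of those upstream, against 11.8% of named genes with no member. Within 20 kb the opposite strand held a protein-coding gene's end for 17.1%, 23.8% and 25.7%, against 51.1%. The rule bears on these shares, because a member with a named region on its own strand nearby is not a member. An antisense gene of the later annotation ended there for 17.5%, 21.7% and 27.6% of the neighbours and for 17.5% of the named genes with no member.

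Members were weaker than the genes across from them. The mean signal over 6 libraries had a median of 19.7 among members (range 6.37 to 2204) and 78.6 among their neighbours. The ratio of the member's mean to its neighbour's had a median of 0.448 in overlapping pairs, 0.317 beyond and 0.215 upstream. In 244 pairs the member's mean was the higher one, in 48 the member was above its neighbour in all 6 libraries, and in 675 it was above in none. Across the 1128 pairs the levels of member and neighbour had a Spearman correlation of 0.13 (0.18 over 485 overlapping pairs), a description of pairs that share the 6 libraries.

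The strongest member was NOVEL_2957 (chr6:33056983-33057131, NCBI36/hg18, minus strand), which overlaps BRD2, a bromodomain reader of acetylated histones, by 88 bases. Its signal was 172, 1439 and 1571 in hESCs and 2175, 5072 and 2793 in endoderm. The mean was 1061 ± 773 in hESCs and 3347 ± 1526 in endoderm (SD, n = 3), a difference of 2.10 (SE 0.48, adjusted p = 0.03) on the log2(signal + 1) scale in limma. BRD2 itself had 2635, 2809 and 3125 in hESCs and 4374, 7688 and 5464 in endoderm, above the member in all 6 libraries. The hESC G1 library is the low one for the member, and the groups do not overlap.

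Some strong members exceeded the gene across from them. NOVEL_3616, opposite RAB5B, a small GTPase of early endosomes, had 201, 605 and 408 in hESCs and 1540.4, 1125 and 1657 in endoderm, against 176, 98.9 and 98.6 in hESCs and 414, 143 and 276 in endoderm for RAB5B. NOVEL_3149, opposite SMS, the spermine synthase, had 76.4, 347 and 559 in hESCs and 1662, 439 and 2203 in endoderm, against 210.3, 116 and 65.0 in hESCs and 93.9, 99.8 and 87.3 in endoderm. The first was above its gene in all 6 libraries and the second in 5, with hESC G1 the exception.

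NOVEL_3570, opposite CD9, a tetraspanin of the cell surface, and NOVEL_2803, opposite BASP1, an acidic membrane-bound protein, were likewise above the gene in all libraries but hESC G1. NOVEL_3570 had 53.7, 769 and 639 in hESCs and 855, 794 and 1116 in endoderm. BASP1's partner had 66.6, 327 and 462 in hESCs and 635, 611 and 558 in endoderm. For both, hESC G1 was the lowest value, and all 3 hESC values lay below the endoderm values. Neither difference between the cell types passed in limma (adjusted p = 0.136 for NOVEL_3570 and 0.0983 for NOVEL_2803). NOVEL_3563, whose span shares 274 bases with that of APLP2, a relative of the amyloid precursor protein, stayed below its gene with 207, 859 and 794 in hESCs and 3129.8, 2263 and 1876 in endoderm.

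Strong members also stood away from their neighbours. NOVEL_1548, 14534.5 bases beyond CHFR, a ubiquitin ligase of the mitotic checkpoint, had 512, 2921 and 512 in hESCs and 1385, 3580.2 and 3099.8 in endoderm, above CHFR in every library. NOVEL_2655, 169.5 bases upstream of the COPG region, a coatomer subunit, had 419.9, 655 and 744 in hESCs and 1409, 1249 and 1198 in endoderm. These values do not overlap between the cell types for NOVEL_2655 and do for NOVEL_1548. The difference passed in limma for NOVEL_2655 (adjusted p = 0.0376) and not for NOVEL_1548 (adjusted p = 0.0529).

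Endoderm against hESC was tested with limma for all 14657 regions that passed a filter on low signal, among them 1127 of the 1128 members. Of these members 114 rose (10.1%) and 25 fell (2.22%), with adjusted p under 0.05. Over all regions tested 6.9% rose and 7.6% fell. The median log2 difference was 1.02 for members and 0.017 for all regions. Overlapping members were 51 higher and 1 lower, members beyond the end 42 and 13, and upstream members 21 and 11, with median differences of 1.27, 0.91 and 0.51. In bulk libraries fewer cells that make an RNA and less of it per cell cannot be told apart. The other unnamed regions had medians of 0.11 near a named region of their strand and -0.62 far from any named region.

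The difference was not alike in the 3 pairs of libraries (plot of members by library). In overlapping members the median signal was 4.54, 10.4 and 27.8 in hESCs and 37.3, 18.3 and 30.8 in endoderm. Their summed signal was 4.65%, 10.7% and 21.1% of that of their neighbours in the hESC libraries and 24.9%, 12.7% and 18.7% in the endoderm libraries. So hESC S lies with the endoderm libraries and hESC G1 far below them. Without hESC G1 the median difference over members was 0.36, with 106 higher and 29 lower. The count called higher dropped most without a G1/S library, with 19 higher and 2 lower without hESC G1/S and 26 and 8 without endoderm G1/S. The median difference over members was 1.26 and 1.25 in those fits. Calls over all regions in them are not given here, so the drop cannot be read as particular to members. DESeq2 on the recovered reads called 204 higher and 29 lower. Calls that held in all 6 fits with 1 library left out numbered 14 of the 114 and 1 of the 25. Among the members named below these were NOVEL_1133, NOVEL_1145, NOVEL_1224, NOVEL_1465, NOVEL_1842, NOVEL_1930, NOVEL_2038, NOVEL_3389, NOVEL_3616 and NOVEL_3996, and the other calls given were lost in at least 1 such fit.

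**Figure D2:**
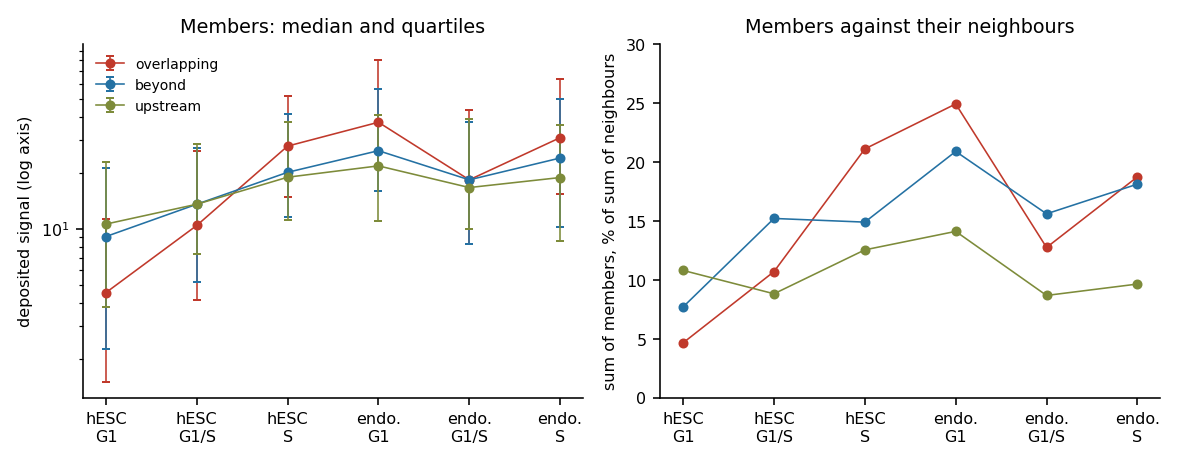
Left, median signal (log axis) of overlapping, beyond and upstream members in each library, with bars from the lower to the upper quartile. Right, summed member signal as a percentage of summed neighbour signal in the same libraries, which for overlapping members runs from 4.65% in hESC G1 to 24.9% in endoderm G1.

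Single libraries were also compared through 95% counting intervals that do not overlap, which has no replicate check. Endoderm G1 against hESC G1 had 780 members higher and 86 lower, with 31.2% and 31.7% of all regions so. In G1/S 202 members were higher and 34 lower (18.4% and 14.7% of all regions), and in S 269 were higher and 184 lower (25.2% and 24.2%). The members that were higher in endoderm made up 69.1% between the G1 libraries, far above the share of all regions. They made up 17.9% between the G1/S libraries and 23.8% between the S libraries, near that share. The median log2 difference over members was 2.35 between the G1 libraries, 0.54 between the G1/S libraries and 0.12 between the S libraries. Overlapping members gave 420 higher and 4 lower in G1, 86 and 6 in G1/S, and 121 and 74 in S.

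In most pairs neither partner was called (plot of differences). The neighbours, counted once per pair, had a median difference of 0.39, with 148 higher and 41 lower. A neighbour shared by several members counts once for each of them. Over all named regions tested 6.95% were higher and 6.98% lower. Both partners rose in 61 pairs and both fell in 9. Calls went opposite ways in 2 pairs, the member alone was called in 67, the neighbour alone in 117 and neither in 872. Across pairs the 2 differences had a Pearson correlation of 0.59 in the 485 overlapping pairs and 0.36 in those beyond and upstream alike, a description, since both partners come from the same libraries.

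**Figure D3:**
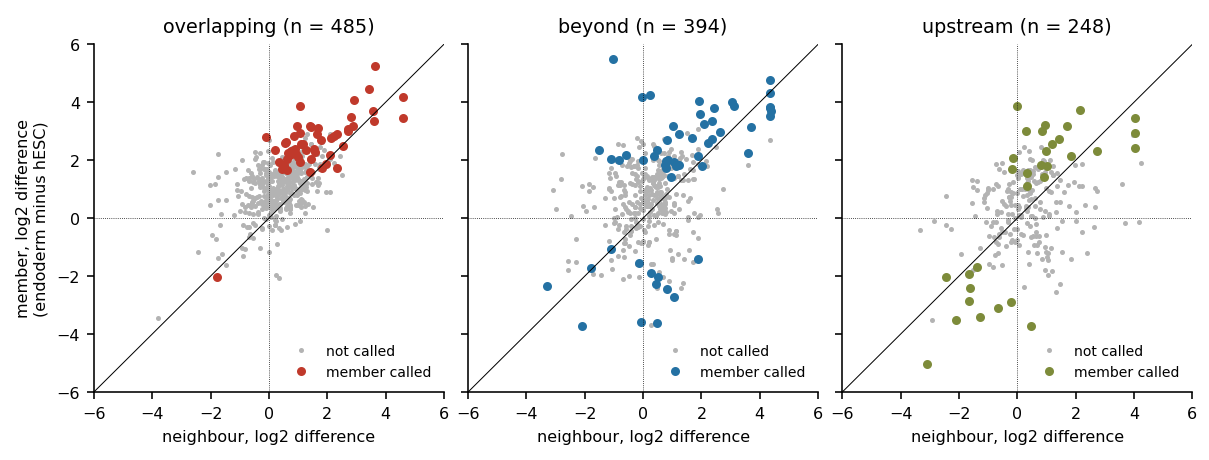
Log2 difference between endoderm and hESC of each member (vertical) against that of its neighbour (horizontal), on the log2(signal + 1) scale, for overlapping (n = 485), beyond (n = 394) and upstream (n = 248) members. Coloured points are members past adjusted p 0.05, the solid line is equality, and the overlapping members lie mostly above the horizontal zero line.

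Definitive endoderm is the germ layer that activin, through Nodal-type receptors, draws from pluripotent cells. Members opposite genes listed for this layer rose most often among the 7 gene lists. Of 21 such genes with a region, 6 had members (CER1, CXCR4, LEFTY1, LEFTY2, LHX1 and PRDM1), and 11 of their 14 members rose and none fell, beside 10.1% of all members and 6.9% of all regions that rose. Among 47 genes of Nodal, BMP and Wnt signalling with a region, 13 had 23 members, of which 10 rose and none fell, and the CER1 and LEFTY members are counted in both lists. The lists were drawn up with earlier results of these data known and are no independent evidence of a direction.

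CER1, a secreted antagonist of Nodal and BMP, had 6 members, all beyond its end, at 1264 to 5745 bases, and 5 of them rose (plot of members opposite CER1 and GRPR). The strongest, NOVEL_1145 (chr9:14708915-14709040, plus strand), had 3.78, 7.29 and 34.9 in hESCs and 454, 209.6 and 305 in endoderm. Its difference was 4.78 (SE 0.61, adjusted p = 0.00536), and that of CER1 was 4.36 (SE 0.30, adjusted p = 0.00145). NOVEL_1141, 4025 bases beyond, had 0.757, 1.04 and 1.18 in hESCs and 61.5, 41.6 and 22.3 in endoderm. Every hESC value of both lies below every endoderm value. NOVEL_1144, the member that did not pass, had 0.757, 0 and 2.95 in hESCs and 37.3, 3.33 and 10.3 in endoderm. The 6 share 1 neighbour and may not be separate transcripts.

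**Figure D4:**
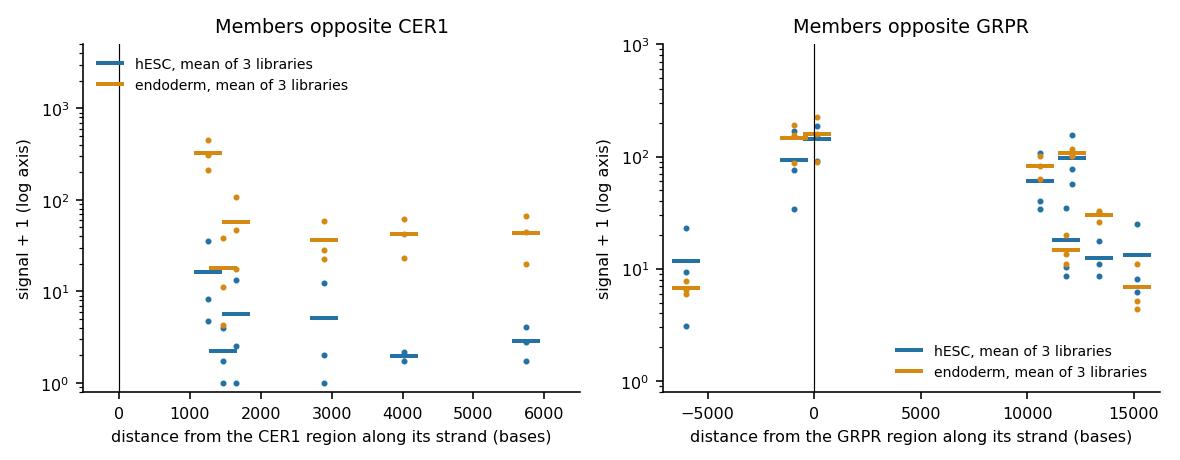
Signal + 1 (log axis) of the 6 members opposite CER1 and the 8 opposite GRPR against their distance from the neighbour along its strand (bases), with a point per library and a bar at the mean of the 3 libraries of each type. Endoderm lies above hESC for the CER1 members, while the types mix for the GRPR members.

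CXCR4, the chemokine receptor used to sort definitive endoderm, overlaps NOVEL_312 by 157 bases. The member had 0, 1.04 and 1.77 in hESCs and 38.7, 28.3 and 27.4 in endoderm, with 3 reads or fewer in each hESC library, and CXCR4 had 16.6, 11.5 and 39.0 in hESCs and 732, 316 and 525 in endoderm. The member's difference was 4.17 (SE 0.72, adjusted p = 0.0138) and the gene's 4.59 (SE 0.39, adjusted p = 0.00221). LHX1, a homeobox factor of anterior mesendoderm, had 3 members on its upstream side, and all 3 rose. NOVEL_3996, 12239.5 bases upstream, had 44.6, 44.8 and 45.5 in hESCs and 257, 619 and 264 in endoderm, with a difference of 2.92 (SE 0.36, adjusted p = 0.00477), and LHX1 had 132, 87.5 and 59.7 in hESCs and 661, 4587 and 1006 in endoderm. In each of these pairs the member stayed below its gene in all 6 libraries.

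Other overlapping pairs rose together. NOVEL_1465 and LRIG3, a membrane protein with leucine-rich repeats, share 106 bases. The member had 3.03, 0 and 17.1 in hESCs and 235, 99.8 and 171 in endoderm, and LRIG3 had 4.54, 2.08 and 2.36 in hESCs and 75.3, 29.9 and 44.5 in endoderm, with differences of 5.26 (SE 0.66, adjusted p = 0.00511) and 3.62 (SE 0.50, adjusted p = 0.00671). NOVEL_1930, opposite COLEC12, a scavenger receptor of the collectin family, had 5.30, 4.16 and 12.4 in hESCs and 300.3, 126 and 116 in endoderm, above COLEC12 in all 6 libraries. Here the weak partner is the named gene, with 1.51, 1.04 and 2.36 in hESCs and 62.1, 11.6 and 25.7 in endoderm.

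NOVEL_3728 overlaps KLF5, a Krüppel-like transcription factor, by 55 bases and had 9.84, 23.9 and 88.0 in hESCs and 327, 339 and 303 in endoderm, and KLF5 had 43.1, 72.9 and 52.6 in hESCs and 247, 373 and 650.4 in endoderm. The difference was 3.49 (SE 0.56, adjusted p = 0.0107) for the member and 2.81 (SE 0.35, adjusted p = 0.00481) for the gene. NOVEL_1224, 2214.5 bases beyond KLF6 of the same family, had 33.3, 73.9 and 40.8 in hESCs and 174, 660.5 and 272 in endoderm, a difference of 2.73 (SE 0.31, adjusted p = 0.00403). Both members are higher in every endoderm library than in any hESC library.

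VIM, the intermediate filament vimentin, is a gene with a known antisense partner. NOVEL_3389, within its region, had 4.54, 12.5 and 12.4 in hESCs and 197, 54.9 and 272 in endoderm, a difference of 3.85 (SE 0.60, adjusted p = 0.00957), while VIM itself, with 2509, 989 and 1799.9 in hESCs and 3273, 2956 and 4106 in endoderm, had 1.05 (SE 0.27, adjusted p = 0.0431). The member was a small part of the gene's signal throughout. FZD5 and FZD7 are Wnt receptors. NOVEL_358, beyond FZD5, had 31.0, 27.1 and 28.4 in hESCs and 191, 276 and 53.1 in endoderm and NOVEL_2540, upstream of FZD7, had 1.51, 3.12 and 22.4 in hESCs and 99.4, 15.0 and 80.4 in endoderm, with differences of 2.26 (SE 0.49, adjusted p = 0.0264) and 3.02 (SE 0.74, adjusted p = 0.0376). For FZD7's member the endoderm G1/S value of 15.0 lies within the hESC range. In the later annotation the protein-coding gene CCNYL1, on the strand opposite FZD5, ends a short way beyond FZD5's end. By midpoints NOVEL_358 lies 807.5 bases beyond the FZD5 region, and whether it is the end of CCNYL1 was not tested. NOVEL_358 is counted in the list of Nodal, BMP and Wnt signalling.

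Some members rose where the gene across did not pass. NOVEL_2038 (chr19:58983993-58984176, plus strand) lies 4953 bases beyond NLRP12, a NOD-like receptor of myeloid cells. It had 13.6, 22.9 and 27.8 in hESCs and 351, 797 and 252 in endoderm, a difference of 4.26 (SE 0.42, adjusted p = 0.00326), while NLRP12 had 21.2, 39.6 and 40.8 in hESCs and 35.2, 26.6 and 61.6 in endoderm. The member's means were 21.4 ± 7.19 and 466 ± 290.5 (SD, n = 3). The groups are far apart for the member and overlap for the gene. In the later annotation the strand opposite NLRP12 holds, beyond its end, the genes of the miR-371a, miR-372 and miR-373 cluster, which is known for its expression in pluripotent cells. Their mature forms are shown because they are the named RNAs annotated on the member's strand there, with the seed (bases 2 to 8) in capitals, from RefSeq (GRCh38.p14).
hsa-miR-371a-3p: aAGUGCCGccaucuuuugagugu
hsa-miR-372-3p: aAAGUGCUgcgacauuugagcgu
hsa-miR-373-3p: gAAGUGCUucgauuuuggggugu
The latter pair share a seed and the first differs from them. Whether NOVEL_2038 is the end of the cluster's transcript or of AC008753.2 was not tested, since builds differ. Mature miRNAs carry no poly(A) tail and were not measured.

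NOVEL_1133 had the largest rise among the members that passed. It lies 2600.5 bases beyond NFKBIL2, also known as TONSL, a factor of replication fork repair. Its signal was 1.51, 0 and 1.18 in hESCs and 55.9, 118 and 75.3 in endoderm, a difference of 5.51 (SE 0.64, adjusted p = 0.00424). NFKBIL2 had 64.3, 36.4 and 11.8 in hESCs and 6.21, 23.3 and 20.5 in endoderm and did not pass. NOVEL_3444, 12119.5 bases beyond HIF1AN, the hydroxylase that acts on HIF1A, had 0.757, 0 and 0 in hESCs and 26.9, 31.6 and 10.3 in endoderm, and HIF1AN had 69.6, 89.5 and 130.0 in hESCs and 91.1, 108 and 75.3 in endoderm. The 3 hESC libraries together hold 1 read of that member.

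Members that fell lay apart from their neighbours in 24 of 25 cases. NOVEL_1842 (chr17:3542041-3542152, plus strand), 18669 bases upstream of P2RX5, an ATP-gated channel, had 1045, 296 and 829.9 in hESCs and 11.7, 31.6 and 17.1 in endoderm, a difference of -5.02 (SE 0.57, adjusted p = 0.00404). Its means were 723 ± 386 and 20.2 ± 10.3 (SD, n = 3). P2RX5 had 29.5, 13.5 and 43.7 in hESCs and 0.69, 3.33 and 3.42 in endoderm and fell too, and the member was above it in all 6 libraries. NOVEL_444, 2097.5 bases upstream of DPPA4, a nuclear protein of pluripotent cells, had 37.1, 47.9 and 34.9 in hESCs and 1.38, 1.66 and 3.42 in endoderm, a difference of -3.74 (SE 0.58, adjusted p = 0.00923). DPPA4 had 241, 123 and 133 in hESCs and 279.6, 103 and 354 in endoderm and was not called.

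NOVEL_2914, 3422 bases beyond GRK6, a kinase of G protein-coupled receptors, had 44.6, 23.9 and 26.6 in hESCs and 2.76, 3.33 and 0 in endoderm. NOVEL_1458, 15506.5 bases beyond GALNT6, an enzyme that starts mucin-type O-glycans, had 31.8, 36.4 and 49.6 in hESCs and 2.07, 1.66 and 3.42 in endoderm. Both fell, while GRK6 had a difference of 0.48 (SE 0.26, adjusted p = 0.233) and GALNT6 one of -0.081 (SE 0.32, adjusted p = 0.88). The members NOVEL_3455 and NOVEL_3456 on either side of the KNDC1 region fell together, from 22.7, 25.0 and 14.8 and from 28.7, 23.9 and 13.0 in hESCs to 1.38, 1.66 and 0 and 0.69, 1.66 and 0 in endoderm. Near C8orf55 and PLAT, the tissue plasminogen activator, NOVEL_3301 and NOVEL_1073 fell by 3.09 and by 3.42 on the log2 scale, and neither gene passed.

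Whether a member responded otherwise than the gene across from it was tested as a difference of log2 values within each library, over all 4678 pairs of a region with an opposite-strand named region. Of 1127 member pairs 12 were positive, the member having moved up relative to its neighbour in endoderm, and 15 negative, against 2.89% and 3.27% of all pairs. The members' shares are below these. The median over member pairs was 0.60 and 201 had an unadjusted p under 0.05. With no intensity trend in the fit no member pair passed. Leaving out an S library gave 2 positive and 1 negative, and leaving out hESC G1/S gave 64 and 30 and endoderm G1/S 70 and 31.

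Among overlapping pairs 1 was called. NOVEL_2705 shares 123 bases with the region of HES1, a transcriptional repressor downstream of Notch. The member had 3.03, 3.12 and 10.6 in hESCs and 13.1, 16.6 and 20.5 in endoderm, while HES1 had 1184, 39.6 and 1328 in hESCs and 83.5, 51.6 and 61.6 in endoderm. The pair difference was 4.21 (SE 0.89, adjusted p = 0.0428), and neither partner passed alone. The hESC G1/S value of HES1 lies below its endoderm values and the other hESC values above them, so the gene's groups overlap.

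The largest positive pair differences were 6.53 (SE 0.92, adjusted p = 0.0208) for NOVEL_1133 against NFKBIL2, 4.98 (SE 0.88, adjusted p = 0.0281) for NOVEL_2684 against FNDC3B, 4.21 (SE 0.70, adjusted p = 0.0259) for NOVEL_3444 against HIF1AN, 4.15 (SE 0.70, adjusted p = 0.0259) for NOVEL_2708 against LRCH3 and 4.02 (SE 0.71, adjusted p = 0.0286) for NOVEL_2038 against NLRP12. LRCH3 fell, from 51.4, 37.5 and 47.3 to 13.8, 3.33 and 3.42, while NOVEL_2708 had 26.5, 123 and 40.8 in hESCs and 148, 105 and 145 in endoderm. In the later annotation the protein-coding gene IQCG, on the strand opposite LRCH3, ends 639 bases beyond LRCH3's end. By midpoints NOVEL_2708 lies 1225 bases beyond the LRCH3 region, and whether it is the end of IQCG was not tested. In the FNDC3B pair the 3 differences rest on few reads, with endoderm values of 2.76, 0 and 5.13 for the gene.

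The largest negative differences were of several kinds. With FAM89A the gene rose and the member did not, as FAM89A had 3.03, 4.16 and 4.73 in hESCs and 122, 81.5 and 70.2 in endoderm and NOVEL_221 had 10.6, 12.5 and 10.6 in hESCs and 31.8, 3.33 and 8.56 in endoderm. C6orf223 rose in the same way against NOVEL_2973, with a pair difference of -3.85 (SE 0.66, adjusted p = 0.0263). With DPPA4 and GRK6, described above, the member fell and the gene did not pass, with pair differences of -4.19 (SE 0.57, adjusted p = 0.0207) and -4.12 (SE 0.63, adjusted p = 0.0225). FLVCR1, a heme exporter, did not pass either, while its member NOVEL_2399 fell (-2.73, adjusted p = 0.0295, limma). Their pair difference was -3.79 (SE 0.77, adjusted p = 0.0383). Neither VASH1, an inhibitor of angiogenesis, nor its member NOVEL_3764 passed alone, and their pair difference was -3.59 (SE 0.73, adjusted p = 0.0385).

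The pairs with opposite calls were NOVEL_48 with FAM46B and NOVEL_2889 with SYNPO, an actin-binding protein. NOVEL_48, 8708.5 bases beyond its neighbour, had 35.6, 37.5 and 42.5 in hESCs and 138, 109.8 and 265 in endoderm, whereas FAM46B had 1308, 2483 and 2123 in hESCs and 652, 1700.2 and 1138 in endoderm. The member rose by 2.02 (SE 0.35, adjusted p = 0.0138) and the gene's difference was -0.82 (SE 0.22, adjusted p = 0.0497). NOVEL_2889 had 49.2, 68.7 and 42.5 in hESCs and 21.4, 18.3 and 17.1 in endoderm and SYNPO had 11.3, 25.0 and 32.5 in hESCs and 38.7, 135 and 95.9 in endoderm, differences of -1.43 (SE 0.39, adjusted p = 0.0495) and 1.87 (SE 0.38, adjusted p = 0.0212). The groups do not overlap for the members nor for SYNPO, while the hESC G1 value of FAM46B lies below its endoderm G1/S value.

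**Figure D5:**
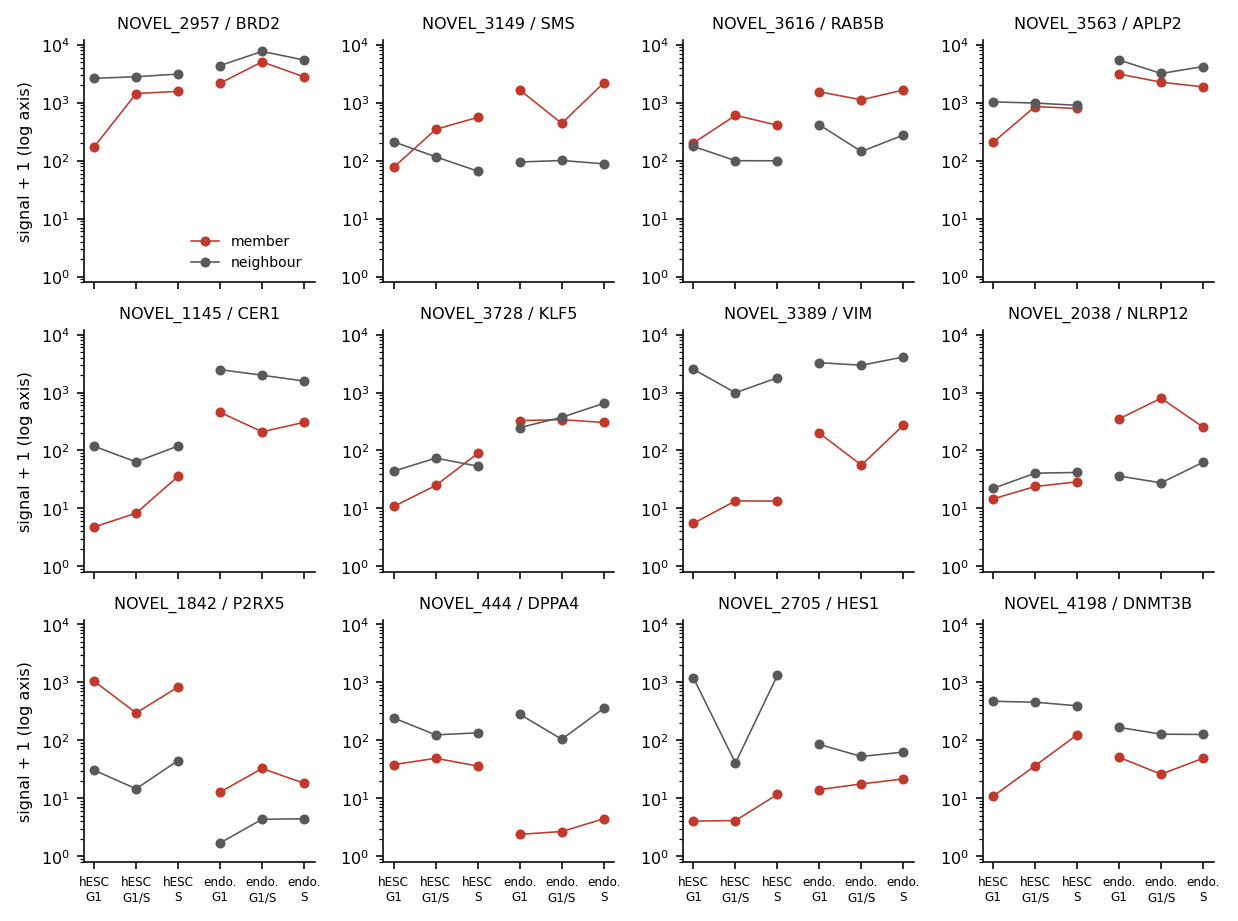
Signal + 1 (log axis) in each of the 6 libraries for 12 members (red) and their neighbours (grey), with lines joining the libraries of a cell type. In the BRD2 and APLP2 pairs the member dips in hESC G1 alone, in the CER1, KLF5 and VIM pairs both partners are higher in endoderm, and in the NLRP12, DPPA4 and HES1 pairs the partners part.

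No member differed between phases at adjusted p under 0.05 in limma, in G1/S against G1 or in S against G1, and neither did any other region (0.0% and 0.0%). At an unadjusted p under 0.05 there were 88 and 66 members, of 2002 and 497 among all regions. edgeR called none either. DESeq2 called 4 members in G1/S against G1, beside 37 regions higher and 52 lower over all regions. In S against G1 it called 0 members, beside 1 region higher and 0 lower. The median S minus G1 difference of members was 0.69, against 0.002 over all regions. Phase calls in limma moved away from 0 when a G1 library was left out. The G1 phase then rests on a single library, so no count is read from those fits. The limma model takes a phase to act alike in both cell types. For members the single libraries went opposite ways in the 2 types, a difference that was not tested. In hESCs S was above G1 by counting intervals in 611 members and below in 45, with 22.2% and 20.1% of all regions so. In endoderm S was above G1 in 75 members and below in 189, with 15.2% and 12.3% of all regions so.

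The members with the smallest p for higher G1/S were NOVEL_4130, NOVEL_1224 beyond KLF6 and NOVEL_2439 beyond FOSL2, a subunit of AP-1. NOVEL_4130, 2513 bases beyond ZSWIM4, had 57.5, 210.3 and 125 in hESCs and 94.6, 361 and 122 in endoderm, highest at G1/S in both cell types (difference 1.89, unadjusted p = 0.00141, adjusted p = 0.362, limma). In the later annotation the strand opposite ZSWIM4 holds the genes of miR-23a, miR-27a and miR-24-2 beyond its end, a cluster made from 1 precursor RNA.
hsa-miR-23a-3p: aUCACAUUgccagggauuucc
hsa-miR-27a-3p: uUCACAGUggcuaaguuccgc
hsa-miR-24-3p: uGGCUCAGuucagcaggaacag
The capitals again mark the seeds, which all differ, and whether this member belongs to that precursor was not tested.

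NOVEL_194, beyond NUCKS1, a chromatin-associated protein, was lowest at G1/S in both types, with 241, 43.7 and 235 in hESCs and 272, 84.8 and 142 in endoderm. NOVEL_212, beyond ENAH, a regulator of actin filaments, had 104, 6.25 and 93.9 in hESCs and 103, 26.6 and 34.2 in endoderm, and in endoderm its S value is close to that at G1/S. Higher in S were NOVEL_1479, opposite PHLDA1, with 2.27, 12.5 and 59.7 in hESCs and 61.5, 44.9 and 132 in endoderm, and NOVEL_647, opposite FOXD1, a forkhead factor, with 0.757, 6.25 and 23.0 in hESCs and 25.5, 23.3 and 63.3 in endoderm. Both were highest at S in each cell type, and hESC G1 held the lowest of the 6 values. NOVEL_3101, beyond ATP6V1F, a subunit of the vacuolar proton pump, had 79.4, 94.7 and 43.7 in hESCs and 35.2, 28.3 and 12.0 in endoderm, lowest at S in both types.

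The members opposite genes of the G1/S transition and replication were few. Of 66 such genes with a region, 8 had 1 member each (CDK2, CDKN1C, E2F7, MCM3, MCM4, ORC1L, POLE3 and UNG). None of the 8 was called between the cell types, beside 10.1% of all members that rose and 2.22% that fell. Over all regions 6.9% rose and 7.6% fell, so on so few members the absence of calls is not read as a result. NOVEL_3261 overlaps MCM4, a subunit of the replicative helicase, by 26 bases and had 117, 365 and 278 in hESCs and 661, 403 and 652 in endoderm. NOVEL_771, 5107 bases beyond MCM3 of the same complex, had 30.3, 157 and 73.2 in hESCs and 235, 151 and 161 in endoderm. MCM4 and MCM3 had differences of -0.11 (SE 0.25, adjusted p = 0.783) and 0.19 (SE 0.28, adjusted p = 0.666), and in both members hESC G1 is the lowest library.

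Of 17 pluripotency genes with a region, 8 had members, 10 in all, of which 1 fell (NOVEL_444 at DPPA4) and none rose, beside 2.22% of all members that fell and 10.1% that rose. The share of such genes with a member, 47.1%, stands beside 9.93% of all 9586 names, on few genes. NOVEL_4198 overlaps DNMT3B, the de novo DNA methyltransferase of pluripotent cells, by 107 bases. It had 9.84, 35.4 and 123 in hESCs and 49.7, 25.0 and 47.9 in endoderm, while DNMT3B had 469.8, 453 and 393 in hESCs and 166, 126 and 125 in endoderm and fell by 1.66 on the log2 scale (adjusted p = 0.0102, limma). The gene's groups are apart and the member's overlap. NOVEL_2796, opposite ZFP42, a zinc finger protein of pluripotent cells, had 67.3, 28.1 and 47.3 in hESCs and 39.4, 23.3 and 24.0 in endoderm, above ZFP42 in 5 libraries.

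Among 60 chromatin regulators with a region 14 had 20 members, of which 1, opposite BRD2, rose, beside 10.1% of all members and 6.9% of all regions. NOVEL_596, 1209 bases beyond HMGB2, a nonhistone protein that bends DNA, had 25.0, 64.6 and 317 in hESCs and 839, 171 and 541 in endoderm, above the gene in 4 libraries. NOVEL_3622, opposite HMGA2 of a related class, had 38.6, 31.2 and 164 in hESCs and 327, 79.9 and 140.4 in endoderm, above the gene in 5. Neither difference passed. Among 35 developmental transcription factors 7 had 8 members and 4 rose, and among 36 genes listed for a known antisense or divergent partner 9 had 11 members and 3 rose. The same shares of 10.1% and 6.9% stand beside these counts, which rest on few members. In the latter list NOVEL_3752, opposite HIF1A, the oxygen-regulated factor, had 11.3, 18.7 and 61.4 in hESCs and 96.7, 21.6 and 94.1 in endoderm, and NOVEL_35, beyond EPHA2, a receptor for ephrins, had 9.08, 27.1 and 96.3 in hESCs and 249.9, 74.9 and 101 in endoderm, without passing.

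GRPR, the receptor for gastrin-releasing peptide, had the most members, 8 on the strand across from it between 6026.5 bases upstream and 15160.5 bases beyond. None was called. NOVEL_3141, which shares 178 bases with the gene's region, had 187, 89.5 and 149 in hESCs and 224, 88.2 and 159 in endoderm, above GRPR (16.6, 13.5 and 35.4 in hESCs and 24.2, 15.0 and 22.3 in endoderm) in all 6 libraries. NOVEL_3144, 12127.5 bases beyond, had 154, 76.0 and 56.1 in hESCs and 99.4, 115 and 103 in endoderm. The values of the cell types overlap for both, and the later annotation has an antisense gene ending near GRPR's end. FBXL10, also known as KDM2B, a histone demethylase, had 5 weak members with means of 10.5 to 22.2, none of them called.

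At the edge of the 20 kb rule, NOVEL_2069 (C20orf112, 19977 bases, mean 16.1) and NOVEL_549 (HNRNPD, 19952.5 bases, mean 118) lay just inside. NOVEL_4274 (ADSL, 20225.5 bases, mean 16.7) and NOVEL_729 (GNB2L1, 20241 bases, mean 83.5) lay just outside. The table gives each region 1 strand, and the labels do not say how strand entered the counting. Reads of overlapping partners cannot be told apart if it did not, and its part in these results was not tested.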

How the data were processed

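H9 hESCs and day 6 endoderm were profiled by 3' RNA-Seq in 6 libraries, 3 per cell type. Builds hg18/NCBI36 and the tools Bowtie 0.12.7, CASAVA 1.5 and DESeq 1.5.24 are listed, per the submitters' processing notes, which do not say what each did. The authors deposited a linear signal per region and library. At a tolerance of 1e-06, 100% of the deposited signal values are whole reads divided by 1 size factor per library, and the reads were recovered on this basis.

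Positions are those of the deposited table, 1-based. The fit, in limma 3.58.1 (R 4.3.3), used log2(signal + 1), a pseudocount of 1, which understates the change of weak regions, for 14657 regions at 1 or more on that scale in at least 3 libraries. It had terms for cell type and phase and an intensity trend, 2 residual and 5.46 prior degrees of freedom, with Benjamini-Hochberg adjustment over all regions (threshold 0.05). Pairs were fitted alike on the difference of member and neighbour, over 4678 pairs. The phase term pairs the types, since each phase has 1 library per type. On the recovered reads edgeR 4.0.16 (TMM scaling) called 816 regions higher and 1174 lower and DESeq2 1.42.0 1379 and 1401. These were alternatives, beside other pseudocounts, filters, scalings, distances and left-out libraries. The fits were checked on simulated reads.

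Members described by name were the 8 strongest, the 8 largest rises and falls, the 6 largest positive and negative pair differences, the 5 largest same- and opposite-direction pairs, the 4 closest pairs, the 3 smallest p for each phase direction, those at the distance limit, up to 3 of the strongest of each gene list, and those of neighbours shared by 3 or more members, from which the largest groups are described. Of these, 2 are not reported here. The members and lists were chosen with earlier results of these data known. Neighbour names were matched to GENCODE 29 for 97.5% of 952. No genome or annotation of hg18 was used, so no sequence of a member is printed and no exon or UTR is given.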

Additional observations from a re-analysis of the deposited data

Results flagged for a closer look

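A single library stands for each type and phase, so the cases below were picked where 95% counting intervals of 2 libraries lie apart in opposite directions in the 2 cell types or phases, among members described by name. The difference itself was not tested.

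In 10 members the step from G1 to S went up in hESCs and down in endoderm. On the log2(signal + 1) scale it was 3.27 and -1.30 for NOVEL_35 (EPHA2), 3.61 and -0.63 for NOVEL_596 (HMGB2), 1.25 and -0.54 for NOVEL_771 (MCM3), and 2.17 and -0.45 for NOVEL_1465 (LRIG3). Opposite CER1 it was 3.61 and -1.06 for NOVEL_1142, 2.42 and -1.19 for NOVEL_1143, and 2.91 and -0.57 for NOVEL_1145. For NOVEL_2655 (COPG), NOVEL_3563 (APLP2) and NOVEL_3622 (HMGA2) it was 0.82 and -0.23, 1.94 and -0.74, and 2.06 and -1.21.

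Endoderm minus hESC changed sign between phases in 5 members described here. From G1 to S it went from 2.76 to -1.68 for NOVEL_549 (HNRNPD), from 2.23 to -1.35 for NOVEL_4198 (DNMT3B), and from -0.62 to 0.86 for NOVEL_3144 (GRPR). From G1/S to S it went from 0.94 to -0.72 for NOVEL_194 (NUCKS1) and from 1.93 to -1.43 for NOVEL_212 (ENAH).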

How the results depend on the processing

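The endoderm counts (114 members higher, 25 lower) stayed within 1.5 times under most settings. The stricter filter, which tests fewer regions, gave 55 and 11, leaving out both G1/S libraries 16 and 2, DESeq2 204 higher, and a 5 kb limit 16 lower. Overlapping members (51 higher, 1 lower) gave 30 and 0 with the stricter filter, 8 and 0 without both G1/S libraries, 97 and 2 with DESeq2, and 32 higher with no intensity trend. Leaving out 1 library gave 19 to 127 higher and 2 to 39 lower, and 8 to 73 and 0 to 7 among overlapping members. The median difference kept its direction, from 0.36 to 1.47. The cause was not tested beyond the smaller number of regions or libraries.

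Without the replicate block, that is, with the types not paired by phase, 98 members were higher and 27 lower, 2 overlapping members were lower, and 16 member pairs were positive and 16 negative.

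Pair calls (12 positive, 15 negative) were 5 and 3 with the stricter filter, 0 and 0 with no intensity trend, 62 and 30 with both G1/S libraries left out and 7 and 5 at 5 kb, and 23 negative at a pseudocount of 4 and 9 after quantile normalisation. With 1 library left out they ran from 2 to 70 and from 1 to 31. Phase calls (0) ran from 0 to 53 for G1/S and from 0 to 123 for S, and DESeq2 gave 4 for G1/S. Overlapping members made up 43.0% of members, 48.3% at 10 kb and 53.5% at 5 kb.

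Among members described by name, 11 endoderm differences that were not called changed sign with 1 library left out. They ran from -0.16 to 0.67 for NOVEL_87 (ORC1L), from -0.27 to 0.56 for NOVEL_194 (NUCKS1), from -0.73 to 0.95 for NOVEL_212 (ENAH), from -0.96 to 0.61 for NOVEL_221 (FAM89A), from -0.18 to 0.67 for NOVEL_428 (FOXP1), from -0.38 to 1.84 for NOVEL_549 (HNRNPD), from -1.03 to 0.36, -0.65 to 0.64 and -0.017 to 0.72 for NOVEL_3139, NOVEL_3143 and NOVEL_3144 (GRPR), from -0.17 to 0.65 for NOVEL_3157 (DDX3X), and from -0.92 to 0.87 for NOVEL_4198 (DNMT3B). Without both G1/S libraries the sign changed too for NOVEL_87 (-0.16), NOVEL_194 (-0.27), NOVEL_212 (-0.73), NOVEL_221 (0.61), NOVEL_428 (-0.18) and NOVEL_3157 (-0.17). Quantile normalisation gave 0.062 for NOVEL_221, 0.061 for NOVEL_2973 (C6orf223) and 0.20 for NOVEL_3143. edgeR gave -0.038 for NOVEL_212 and 0.011 for NOVEL_221 with TMM, and 0.055 for NOVEL_221 with the deposited size factors.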
